A study of Macaca mulatta with 4 samples.

Results

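Potassium channel genes were followed through the fetal rhesus cerebellum. All genes of the deposited gene list whose symbol begins with KCN were taken, which gave 83 of 30807 genes. They comprised 37 pore-forming subunits of voltage-gated channels, 9 auxiliary subunits of these channels, 12 genes of calcium- or sodium-activated channels with their auxiliary subunits, 12 inward rectifiers, 12 tandem pore domain channels and KCNRG, a regulator named for its likeness to channel subunits. The gene list has no entry under the symbol KCND3, so that subunit was not analysed here.

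Potassium channels set the resting potential of neurons and glia and the shape, timing and pattern of spikes. In the cerebellum, A-type channels made of KCND pores with KCNIP and DPP partners act in granule cells, fast KCNC channels and large-conductance KCNMA1 channels in Purkinje cells and interneurons, G protein-gated KCNJ channels in granule cells, and KCNJ10 in astroglia. Because granule cells change their excitability as they stop dividing, migrate and mature, the channel genes were described first by cell class, then by granule stage, and last by exposure.

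The study compared 2 Control fetuses with 2 fetuses exposed to intra-amniotic lipopolysaccharide (LPS), as a model of chorioamnionitis. The LPS dose was 1 mg, and delivery followed 5 days later. By the methods of the study Controls had no intervention, while its results name a placebo. Each group held 1 female and 1 male fetus, at 130 days of gestation in both Controls, 131 days in the LPS female and 133 days in the LPS male. Nuclei of the frozen left cerebellum were sequenced as 1 library per fetus. If Controls had no injection, LPS and the injection itself cannot be told apart. Both LPS fetuses were older than both Controls, and the LPS male was the oldest. Exposure and gestational age can therefore not be told apart either. The fetus was the replicate, so n = 2 per group, and the p-values measure the spread between the 2 fetuses of a group. These 2 differed in sex, so that spread holds the difference between the sexes as well. Where 4 values follow each other they are for Control female, Control male, LPS female and LPS male, in that order, and a mean ± SD over the 4 libraries describes them without a test.

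The deposited values are counts of unique molecular identifiers (UMIs, each standing for 1 captured RNA molecule). Of all barcodes, 9256, 8621, 6905 and 7805 held at least 500 genes, with a median of 4506, 1882, 4062 and 2308 UMIs. These 32587 barcodes are called nuclei here. Clusters were made without any KCN gene and named from marker lists, and each named cluster had at least 5 of its listed markers raised. The granule lineage held 22305 nuclei, and 10 other classes had at least 20 nuclei in every library. Purkinje cells had 33, 56, 25 and 17 nuclei and are given as values. A cluster of 2504 nuclei with few UMIs, 1918 of them from the LPS male, and a cluster made mostly of doublet calls stayed unnamed and entered no class. Doublet calls also remained in the named classes. They were 20.7% of astrocytes, 16.5% of proliferating glia, 13.2% of PAX2+ interneurons, 12.1% of fibroblasts and at most 11.3% of any other cluster given a class name. Their part in the LPS comparisons of the classes outside the granule lineage was not tested. Pairs of libraries shared 16 to 22 barcodes, against 7.93 to 11.7 by chance from the barcode list, and the reason was not tested.

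The libraries differed by sex before any exposure was considered. The mitochondrial share of UMIs averaged 0.267 and 0.230% in the females and 0.0212 and 0.0324% in the males. Empty droplets, which hold free RNA, had a median of 300.0, 196, 226 and 496 UMIs, and KCN genes took 0.846, 1.22, 0.465 and 1.87% of them. The empty droplets of the LPS male thus had both the most UMIs and the largest KCN share. KCNIP4 alone stood at 2076, 2797, 759 and 7631 CPM in empty droplets. CPM is the count of a gene scaled to a common UMI total. Free RNA itself was estimated from other barcodes, with fewer UMIs, where KCNIP4 was at 3283, 2048, 2007 and 6078 CPM. The LPS male was the highest library in both sets, but the order of the Controls was reversed.

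Of the 83 genes, 42 had at least 1000 UMIs in the nuclei, 25 had fewer than 100, and KCNA10, KCNK9, KCNK13 and KCNK16 had 0 UMIs in 32587 nuclei, which allows up to 0.00921% of nuclei with a UMI. That limit covers counting error only and is no limit on expression. KCNIP4 gave 495004 UMIs, KCND2 400915, KCNJ6 158168, KCNJ3 135906 and KCNB2 116962. These counts are not corrected for gene length and do not rank the genes. All levels given for classes and stages are CPM of the UMIs summed over the nuclei of that class in a library, and levels are compared only within a gene.

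The share of UMIs on KCN genes was largest in the granule lineage and Golgi cells, which lay above every other tested class in each library. In the granule lineage the share was 1.98, 1.15, 1.67 and 1.69% of UMIs, in Golgi cells 1.87, 1.01, 1.69 and 1.42%, and in molecular layer interneurons 1.18, 0.906, 1.28 and 1.18%. Purkinje cells lay at 1.18, 1.09, 1.24 and 1.11%. Unipolar brush cells, not tested at 21, 8, 10 and 37 nuclei, lay at 1.725, 1.056, 1.426 and 1.397%. PAX2+ interneurons had 0.965, 0.908, 0.933 and 1.39%, and oligodendrocytes, at 1.11, 0.759, 0.990 and 0.8997%, were above them in both females and below them in both males. Without KCNIP4 oligodendrocytes also exceeded molecular layer interneurons in the females, at 0.878 and 0.841% against 0.630 and 0.694%. Bergmann glia had 0.404, 0.412, 0.305 and 0.658% and endothelial stalk cells 0.278, 0.268, 0.180 and 0.345%, and in each library both classes lay under the granule lineage, Golgi cells and molecular layer interneurons.

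The members differed in the class where their level was highest. Classes were ranked among the 11 with at least 20 nuclei in each library, so Purkinje cells stand outside the ranks that follow and are described after them. Of the 42 genes with at least 1000 UMIs, 13 had their highest mean level in the granule lineage, 6 in molecular layer interneurons, 5 each in Golgi cells, PAX2+ interneurons and Bergmann glia, 3 in fibroblasts, 2 each in astrocytes and oligodendrocytes and 1 in microglia. The highest class was the same in all 4 libraries for 24 genes. Among all 9526 genes of this depth, 5.99% were highest in the granule lineage. With free RNA subtracted, at a clustering resolution of 1.0 or without doublets, the highest class changed for 1 of the 42 genes, KCNN2, which moved from Bergmann glia to astrocytes.

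**Figure D1:**
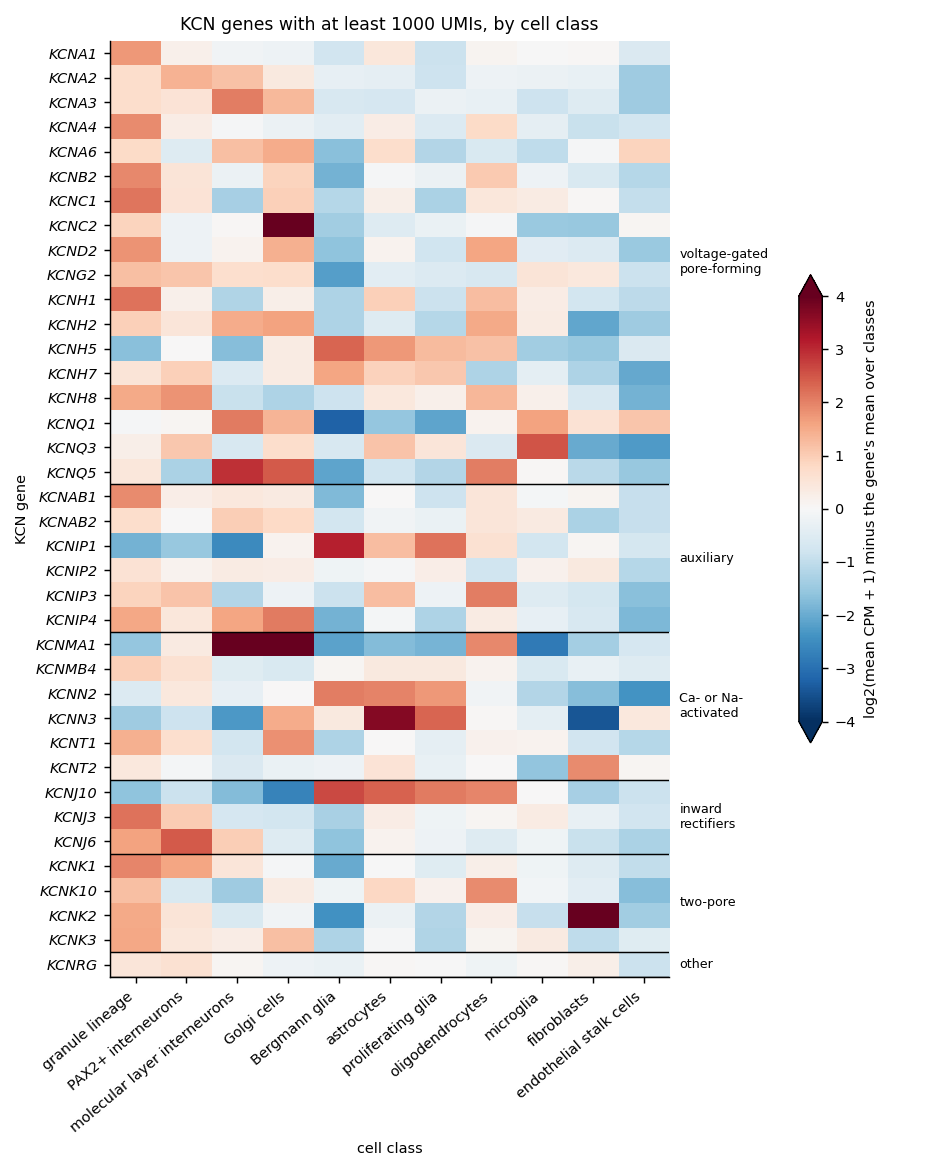
Mean level of 38 of the 42 KCN genes with at least 1000 UMIs (rows, grouped by role) in 11 cell classes (columns), as log2(mean CPM + 1) over the 4 libraries minus the mean of the same gene over the classes. Red marks a class above the mean of that gene and blue a class below it, and colours are capped at 4 in both directions. KCNC2 in Golgi cells, KCNMA1 in molecular layer interneurons and Golgi cells, KCNK2 in fibroblasts and KCNN3 in astrocytes stand out.

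Among the voltage-gated pores, KCND2, the main A-type subunit of granule cells, was at 5435, 2183, 4893 and 2502 CPM in the granule lineage. Oligodendrocytes came close, at 4786, 1868, 4656 and 1732 CPM, and the granule lineage was above them in 4 of 4 libraries. The means of 3753 ± 1649 and 3261 ± 1688 CPM differed by less than the spread between libraries. KCNB2, a delayed rectifier, was at 1419.8, 866, 1659 and 702 CPM in the granule lineage against 688, 736, 667 and 402 CPM in oligodendrocytes, the next class. KCNC1, a fast delayed rectifier, was at 87.2, 80.5, 61.8 and 198 CPM in the granule lineage and at 30.6, 48.6, 27.9 and 78.8 CPM in Golgi cells. KCNH1, KCNA4 and KCNA1 were also highest in the granule lineage in 4 of 4 libraries, at means of 153 ± 55.5, 13.98 ± 4.19 and 27.6 ± 8.11 CPM.

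KCNC2, a fast delayed rectifier known from inhibitory interneurons, marked Golgi cells. Its levels there were 103, 28.2, 199.8 and 82.4 CPM, and the next class, the granule lineage, had 5.56, 2.60, 12 and 11.8 CPM. The lowest Golgi library was above every granule library. Golgi cells also led in KCNS3, a silent modifier subunit, at 28.5, 9.41, 25.7 and 14.3 CPM, and, among the ranked classes, in KCNA6, at 26.4, 18.8, 19.0 and 26.9 CPM, each in 3 of 4 libraries. In Purkinje cells KCNA6 was higher in 4 of 4 libraries, at 61.1, 35.6, 23.9 and 86.7 CPM. For KCNS3 and KCNA6 the next ranked class lay close, at means of 14.4 CPM for KCNS3 in oligodendrocytes and 18.6 CPM for KCNA6 in molecular layer interneurons.

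Molecular layer interneurons led in KCNC4 and KCNA3. KCNA3 had 123, 23.6, 117 and 52.9 CPM against 78.1, 20.4, 61.4 and 26.9 CPM in Golgi cells. KCNC4 had 30.1 ± 2.83 CPM, from 50 UMIs. In both genes molecular layer interneurons were above Golgi cells in 4 of 4 libraries, by the smallest margin in the Control male for KCNA3.

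KCNQ3 and KCNQ5, from a family that carries the slow M-type current in neurons, had their highest level in different classes. The class called microglia had all 10 of its listed markers raised, but F13A1 and MRC1, known from border macrophages, were among its leading genes, and the 2 kinds of cell were not told apart. KCNQ3 was highest in this class, at 1538, 1652, 1648 and 2322 CPM, and the next class, astrocytes, had 686, 893, 690.1 and 507 CPM. The lowest library of the microglia class was thus above the highest astrocyte library. KCNQ5 had its highest means in molecular layer interneurons, at 481 CPM, and Golgi cells, at 350.3 CPM, and molecular layer interneurons were the highest class in 2 of 4 libraries. KCNH8, an ether-a-go-go family channel, was highest in PAX2+ interneurons, the immature inhibitory neurons, in 3 of 4 libraries, at 342 ± 39.1 CPM, and in the LPS male the granule lineage was above them, at 407 against 292 CPM.

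Of the auxiliary subunits, KCNIP4, a calcium-sensing partner of KCND channels, was broad in neurons. Its levels were 9736, 3215, 7713 and 6175 CPM in Golgi cells, 5553, 2695, 5864 and 4774 CPM in molecular layer interneurons and 6119.5, 2311, 3760.2 and 6608 CPM in the granule lineage. Golgi cells were the highest class in 3 of 4 libraries and the granule lineage in the LPS male. In Bergmann glia KCNIP4 was at 134, 228, 49.2 and 1314 CPM, and 53.3, 35.1, 21.1 and 95.0% of these nuclei held a KCNIP4 UMI. Empty droplets carried 7631 CPM of KCNIP4 in the LPS male, and the part of free RNA in the Bergmann value was not tested.

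KCNIP1, of the same family, was instead highest in glia. Bergmann glia, the radial astroglia of the Purkinje layer, had 1398, 1442, 1259.8 and 1759.9 CPM, and 97.6, 84.9, 93.5 and 89.6% of their nuclei held a UMI. Proliferating glia followed with 648, 615, 489 and 1279 CPM, and astrocytes had 364, 376, 375 and 479 CPM. In the granule lineage KCNIP1 was at 7.43, 24.8, 5.64 and 141 CPM, with 2.48, 3.63, 1.66 and 19.9% of nuclei holding a UMI. Bergmann glia were highest in 4 of 4 libraries, and the LPS male stood apart in the granule lineage. KCNIP3 was highest in oligodendrocytes, at 110.4, 199, 64.6 and 113 CPM. A clustering resolution of 1 split this class, with KCNIP3 at 173, 306, 78.6 and 188 CPM in a cluster with OLIG2 among its leading genes. In the other cluster, led by genes of myelinating cells, it was at 38.1, 104, 51.3 and 62.0 CPM. Astrocytes, the next class, had 55.1, 95.3, 49.15 and 75.0 CPM. KCNAB1, a beta subunit of KCNA channels, was at 218 ± 39.4 CPM in the granule lineage, above the other tested classes in 4 of 4 libraries.

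Among the calcium- and sodium-activated channels, KCNMA1, the pore of the large-conductance BK channel, was highest in molecular layer interneurons and Golgi cells among the ranked classes, with a higher mean of 2191 CPM in Purkinje cells. Molecular layer interneurons had 947, 1123, 584 and 2858 CPM and Golgi cells 666, 1054, 486 and 1982 CPM. PAX2+ interneurons had 15.6, 41.9, 19.8 and 118 CPM, the granule lineage 2.7, 23.1, 3.73 and 20.3 CPM and microglia 3.02, 9.55, 0 and 5.43 CPM. In each library molecular layer interneurons were above Golgi cells, and the LPS male was the highest library in both. The BK accessory subunit KCNMB4 was in contrast highest in the granule lineage in 3 of 4 libraries, at 245 ± 31.1 CPM, with PAX2+ interneurons next at 193 CPM.

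KCNN3, a small-conductance SK channel, marked astrocytes at 474, 512, 418 and 516 CPM, with proliferating glia next at 217, 134, 116 and 301 CPM. KCNN1, of the same family, was highest among the ranked classes in PAX2+ interneurons, at 24.6, 27.0, 13.8 and 34.6 CPM from 111 UMIs, and was higher still in Purkinje cells, at a mean of 106.5 CPM. KCNT2, a sodium-activated channel, had its highest mean in fibroblasts, at 474, 757, 862 and 168 CPM, with astrocytes next at 309.9, 162, 286 and 134 CPM. The 31 mural nuclei, too few to rank, had a mean of 1191 ± 598 CPM of KCNT2. KCNMB1, the other BK accessory subunit that met the rule, was highest in astrocytes in 3 of 4 libraries, on 22 UMIs. KCNN2, an SK channel, had close means of 251 CPM in Bergmann glia and 241 CPM in astrocytes. KCNT1, a sodium-activated channel, was low, at means of 18.1 CPM in Golgi cells and 13.6 CPM in the granule lineage.

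Of the 12 inward rectifiers, 3 had at least 1000 UMIs, and KCNJ4, KCNJ5, KCNJ11, KCNJ14 and KCNJ15 had 5 to 384 UMIs and are not described further. KCNJ3 and KCNJ6, which pair as G protein-gated GIRK channels, had their highest levels in neurons. KCNJ3 was at 1718, 1033, 1641 and 1114 CPM in the granule lineage and at 524, 581, 641 and 723 CPM in PAX2+ interneurons, the next class. KCNJ6 had the reverse order, with 2962, 2619.8, 2461 and 3341 CPM in PAX2+ interneurons and 1577, 1589.9, 1364 and 1812 CPM in the granule lineage. Both orders held in 4 of 4 libraries.

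KCNJ10, the channel of potassium buffering in astroglia, was at 71.3, 30.9, 65.7 and 55.9 CPM in Bergmann glia and at 57.3, 26.8, 50.1 and 51.7 CPM in astrocytes. Bergmann glia were the higher class in 4 of 4 libraries, but the gap was smaller than the SD of 17.9 CPM between libraries. The granule lineage had 2.25, 0.839, 2.39 and 2.64 CPM of KCNJ10. KCNJ16, its partner subunit, was at 38.2, 24.0, 25.8 and 42.3 CPM in Bergmann glia. KCNJ8, a vascular ATP-sensitive channel subunit, was found in endothelial stalk cells at 28.8, 4.66, 11.5 and 32.2 CPM, from 23 of its 84 UMIs. Mural cells, too few to rank, were not compared for KCNJ8. In endothelial stalk cells KCNJ2, a strong rectifier, was at 67.2, 18.7, 106 and 10.7 CPM.

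Of the tandem pore domain channels, which carry background potassium currents, KCNK2 marked fibroblasts at 1258, 1339.8, 1357 and 918 CPM. The next class, the granule lineage, had 199, 116, 179 and 80.5 CPM of KCNK2, and a log2 ratio of 4.67 to the mean of the other classes was reached. KCNK1 was highest in the granule lineage, at 693, 445, 652 and 572 CPM, with PAX2+ interneurons next at 463, 408, 529.5 and 452 CPM. KCNK3 followed the granule lineage at 57.8 ± 17.0 CPM, close to Golgi cells at 45.4 CPM. KCNK10 was highest in oligodendrocytes, at 113, 45.02, 96.1 and 127 CPM against 45.2, 30.7, 51.8 and 105 CPM in the granule lineage.

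Of the members that led fibroblasts, microglia and Bergmann glia, KCNE4, KCNJ1 and KCNG4 did so on 23 to 33 UMIs. KCNE4, an auxiliary subunit, was at 11.2 ± 9.84 CPM in fibroblasts from 30 UMIs. KCNJ1, an inward rectifier known from the kidney, was at 20.1 ± 17.3 CPM in microglia from 23 UMIs, with 0 in the LPS male. KCNG4, a modifier subunit, was at 0, 1.14, 8.60 and 28.6 CPM in Bergmann glia, from 33 UMIs. KCNH7, of the ether-a-go-go family, was at 528.5, 285, 403 and 132 CPM in Bergmann glia and was highest there in 3 of 4 libraries. No member was above every other class in at least 3 libraries in proliferating glia.

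In the 131 Purkinje nuclei, ranked after their small number was known, 10 members were above every other class in at least 3 of 4 libraries. KCNMA1 was at 1895, 2926, 1483 and 2459 CPM and KCNAB1 at 1029.5, 501, 693 and 891 CPM, against 269, 208, 220.2 and 174 CPM of KCNAB1 in the granule lineage. KCNJ1 reached 98.1, 78.9, 47.8 and 292 CPM and KCNN1 57.9, 201, 80.3 and 86.7 CPM. KCNC1 was at 131 ± 43.5 CPM, and KCNN2, the SK channel known from Purkinje cells, at 368, 455, 690.5 and 71.0 CPM. The 17 Purkinje nuclei of the LPS male gave the lowest KCNN2 value and the highest KCNJ1 value.

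The KCN share of UMIs was larger in later stages of the granule lineage than in early ones. It was 0.957, 0.797, 0.865 and 0.980% in proliferating precursors, 0.804, 0.765, 0.736 and 0.971% in committing cells and 1.33, 1.04, 1.303 and 1.444% in migrating cells. In maturing cells it was 2.15, 1.20, 2.01 and 1.66%, and in mature cells 2.88, 1.34, 2.08 and 1.94%. The committing stage was the lowest in 4 of 4 libraries. Without KCNIP4 the share was 1.67, 0.988, 1.61 and 1.19% in maturing and 1.498, 0.947, 1.43 and 0.956% in mature cells, so mature cells were below maturing cells in 4 of 4 libraries. In the males it was then largest in migrating cells, at 1.00 and 1.27%. A further cluster of 3886 nuclei, led by CHRM2 and NELL1, had all 7 markers of the list for later granule cells raised but none of them among its 10 leading genes, 2 of which mark mature cells, so it was given no stage name and is called granule cluster 1, with 2.81, 1.49, 2.48 and 1.90%. Mature cells comprised clusters 5, 8 and 9, of which 668 of 686 nuclei in cluster 8 and 440 of 445 in cluster 9 came from the LPS male. Mature cells were thus 6.99, 9.43, 8.69 and 34.1% of granule nuclei. Cluster 5 alone had a KCN share of 2.87, 1.34, 2.08 and 1.82%.

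Of the 30 members with at least 200 granule UMIs in each library, 18 were higher in mature cells than in proliferating precursors in 4 of 4 libraries, 6 were lower in 4 of 4 and 6 were mixed. With cluster 5 alone as mature cells the numbers were again 18 and 6. Among all 6974 genes of this depth, 22.8% were higher in mature cells in 4 of 4 libraries and 47.4% were lower. These counts are a description, since the stages of a library share that library.

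**Figure D2:**
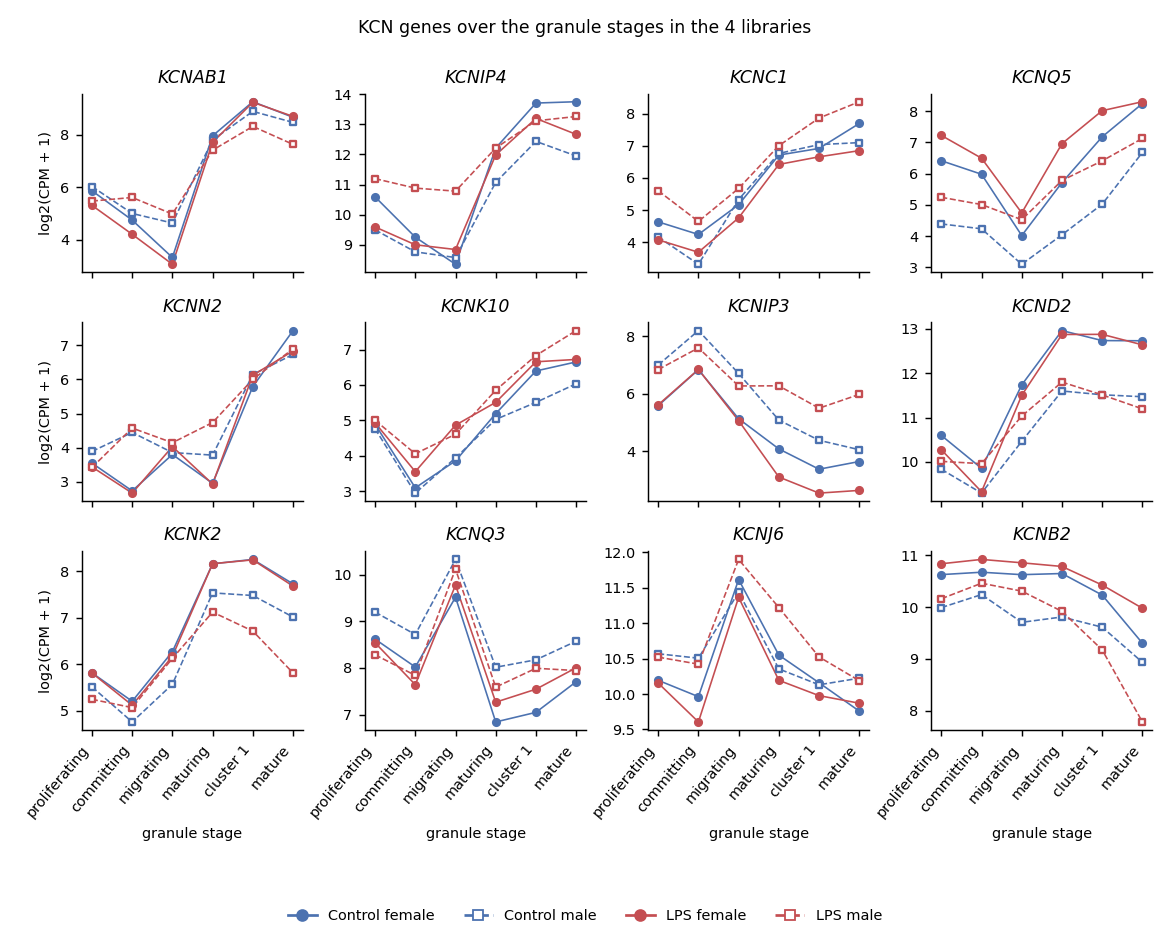
Level of 12 KCN genes as log2(CPM + 1) (vertical axis, scale set per gene) over the granule stages (horizontal axis) in the 4 libraries, drawn as filled circles with solid lines for females and open squares with dashed lines for males. KCNIP4, KCNAB1, KCNC1, KCNK10 and KCND2 ended above their precursor level, KCNIP3 and KCNB2 ended below it, and KCNQ3 and KCNJ6 were highest in migrating cells.

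The A-type pore and its partner reached their high levels at different stages. KCND2 was at 1547, 909.7, 1236 and 1029.9 CPM in precursors, 924, 626, 639.7 and 994 CPM in committing cells and 3414, 1409.5, 2901 and 2096 CPM in migrating cells. It reached 7991, 3102, 7515 and 3566 CPM in maturing cells. KCND2 was therefore already higher in migrating than in committing cells in 4 of 4 libraries. KCNIP4 was still low in migrating cells, at 327, 382, 459 and 1761 CPM, and was at 4746, 2155, 4050.3 and 4741 CPM in maturing cells and 13768, 3956, 6499 and 9804 CPM in mature cells. In the LPS male KCNIP4 did not fall below 1761 CPM at any stage, and the other libraries had 327 to 1544 CPM in the first 3 stages. At the free RNA share estimated for the granule lineage, 14.3, 15.9, 15.3 and 22.8% of UMIs, free RNA alone would give 471, 326, 306 and 1388 CPM of KCNIP4, against the 327, 382, 459 and 1761 CPM measured in migrating cells. The expected values use the KCNIP4 level of the barcodes from which free RNA was estimated, not that of the empty droplets. The free RNA share is for the whole lineage, and in the Control female the expected 471 CPM was above the 327 CPM measured. The part of free RNA in the stage levels was not tested.

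KCNAB1 had the largest range over the stages. It went from 57.6, 64.5, 38.9 and 43.6 CPM in precursors to 9.09, 24.0, 7.44 and 30.7 CPM in migrating cells, and was at 248, 223, 209 and 169.8 CPM in maturing cells and 612, 474, 603 and 319 CPM in granule cluster 1. For KCNAB1 the 4 libraries shared both the lowest and the highest stage. KCNK2, by contrast, peaked in maturing cells and granule cluster 1, at means of 223 ± 74.0 and 222 ± 98.6 CPM, from 31.96 ± 4.2 CPM in committing cells.

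Several members had their highest level at the mature end of the lineage. KCNC1, the fast delayed rectifier, went from 17.9, 8.91, 11.8 and 24.0 CPM in committing cells to 207, 136, 114 and 332 CPM in mature cells. KCNN2 was at 12.9 ± 8.94 CPM in maturing cells and at 172, 105, 113 and 118 CPM in mature cells. KCNK10 went from 7.53, 6.69, 10.7 and 15.6 CPM in committing cells to 99.5, 64.5, 105 and 185 CPM, and to 97.8, 65.3, 104 and 139.8 CPM in cluster 5 alone. Each of these genes was highest in mature cells in 4 of 4 libraries. KCNQ5 was lowest in migrating cells, at 15.2, 7.58, 25.8 and 22.0 CPM, and highest in mature cells, at 301, 101, 314 and 139 CPM, in 4 of 4 libraries.

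Other members belonged to the early or middle stages. KCNIP3 peaked in committing cells, at 113, 293, 114 and 192 CPM, and was at 11.4, 15.5, 5.18 and 61.9 CPM in mature cells, where the LPS male stood apart. KCNB2 was at 1546 ± 312 CPM in committing cells and 586 ± 328 CPM in mature cells, which were the lowest stage in 4 of 4 libraries. KCNG2, a modifier subunit, was highest in committing cells, at a mean of 163 CPM, and was at 46.8 CPM in mature cells. KCNQ3 was highest in migrating cells, at 730.4, 1281, 875 and 1109 CPM, and lowest in maturing cells, at 114, 258, 153 and 192 CPM. KCNJ6 also peaked in migrating cells, at 3138, 2773, 2636 and 3819.7 CPM, and its GIRK partner KCNJ3 peaked 1 stage later, in maturing cells, at a mean of 1961 CPM. Both peaks held in 4 of 4 libraries. KCNK1 and KCNMB4 hardly varied, with log2 ranges of 0.44 and 0.55 over the stages.

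Exposure was compared next, to ask whether the channel genes of granule cells differed after LPS. No KCN gene differed between LPS and Control in the granule lineage by edgeR's quasi-likelihood test at an adjusted p under 0.1 and a log2 fold change over 0.25. Of 14886 genes tested, 61 were KCN genes and 0 of all genes passed (0.0%), with 26 genes (0.175%) and 1 KCN gene at an unadjusted p under 0.05. With the sexes as a block in edgeR 0 genes passed as well, with 277 genes and 3 KCN genes at an unadjusted p under 0.05. With 2 fetuses of different sex per group, 0 genes passing does not show that the groups were alike. DESeq2 also passed 0 genes, with 67 at an unadjusted p under 0.05. Log2 fold changes were positive for 37 of the 61, with a median of 0.107 against 0.0091 over all genes. Without the LPS male 33 of 66 were positive, with a median of -0.028.

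The total KCN share of granule UMIs averaged 1.68% in LPS and 1.56% in Control libraries, a difference of 0.117 percentage points (exact permutation test, two-sided, p = 1.0, n = 2 per group, where 0.333 is the smallest p the design allows). The female pair differed in one direction, 1.67% in LPS against 1.98% in Control, and the male pair in the other, 1.69% against 1.15%. Without the Control male the difference turned to -0.297 percentage points. KCNIP4 alone took 0.612, 0.231, 0.376 and 0.661% of granule UMIs.

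KCNC2 had the smallest unadjusted p of the 61 genes. Its levels were 5.56, 2.60, 12 and 11.8 CPM, both LPS libraries above both Controls, with a log2 fold change of 1.503 ± 0.55 (SE; edgeR, unadjusted p = 0.0430, adjusted p = 1.00), which was 2.27 without the Control female and 1.04 without the Control male. KCNK10 followed with 45.2, 30.7, 51.8 and 105 CPM and a log2 fold change of 1.03 ± 0.49 (edgeR, adjusted p = 1.00). This fold change was 0.44 without the LPS male and 0.68 without clusters 8 and 9, the mature clusters found almost wholly in the LPS male. KCNA2, a low-threshold KCNA channel, had 33.0, 37.3, 46.5 and 57.2 CPM and a log2 fold change of 0.56 ± 0.30 (edgeR, adjusted p = 1.00). In these genes the groups did not overlap, yet none passed the test. Empty droplets held KCNC2 at 7.56, 5.90, 9.62 and 33.3 CPM and KCNK10 at 23.8, 41.9, 11.5 and 82.7 CPM. The LPS male was the highest library there for both, and the part of free RNA in their granule levels was not tested.

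The groups did not overlap for 7 of the 61 genes, all higher in LPS, and for none lower. Over all 14886 genes 7.16% were higher in both LPS libraries and 5.09% were lower. The 7 genes were KCNA1, KCNA2, KCNC2, KCNJ10, KCNJ16, KCNK10 and KCNMB3, named here after their values were seen. For KCNA1, with 28.6, 16.7, 28.8 and 36.3 CPM, the LPS female exceeded the Control female by only 0.0080 on the log2 scale. KCNJ10, with 2.25, 0.839, 2.39 and 2.64 CPM, and KCNJ16, with 1.865, 1.594, 2.10 and 3.38 CPM, were low. In the female pair they differed by 0.061 and 0.115. Empty droplets held KCNJ10 at 36.0, 8.85, 35.3 and 13.4 CPM, and the part of free RNA in its granule levels was not tested.

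Among the other genes of small p, the pairs of the same sex mostly disagreed in size or sign. KCNIP1 had a log2 fold change of 2.23 ± 1.46 (edgeR, adjusted p = 1.00), but LPS was lower by 0.34 in the female pair and higher by 2.46 in the male pair on the log2(CPM + 1) scale. Without the LPS male its fold change reversed, to -1.47, and without clusters 8 and 9 it was 1.71. With free RNA subtracted KCNIP1 had 0 UMIs left in the other libraries and 129 CPM in the LPS male, and fell under the filter. The KCNIP1 level of the LPS male was highest in mature cells, at 55.5, 68.6, 27.3 and 311 CPM, and was present in cluster 5 alone, at 54.9, 69.5, 27.5 and 388 CPM. KCNG2 had 47.5, 147, 41.4 and 57.4 CPM with a log2 fold change of -0.94 ± 0.56, which was 0.0017 without the Control male. KCNQ5 had 92.1, 26.7, 146 and 83.5 CPM, with differences of 0.66 in the female and 1.61 in the male pair, and a log2 fold change that ran from 0.26 without the Control male to 2.19 without the Control female.

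KCNH8 and KCNH7 were also among the 10 genes of smallest p. KCNH8 had 278.9, 173, 256 and 407 CPM, and LPS was slightly lower in the female pair and higher in the male pair, by 1.23 on the log2 scale. KCNH7 had 131, 149, 148 and 214 CPM. Both had an adjusted p of 1.00 by edgeR.

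**Figure D3:**
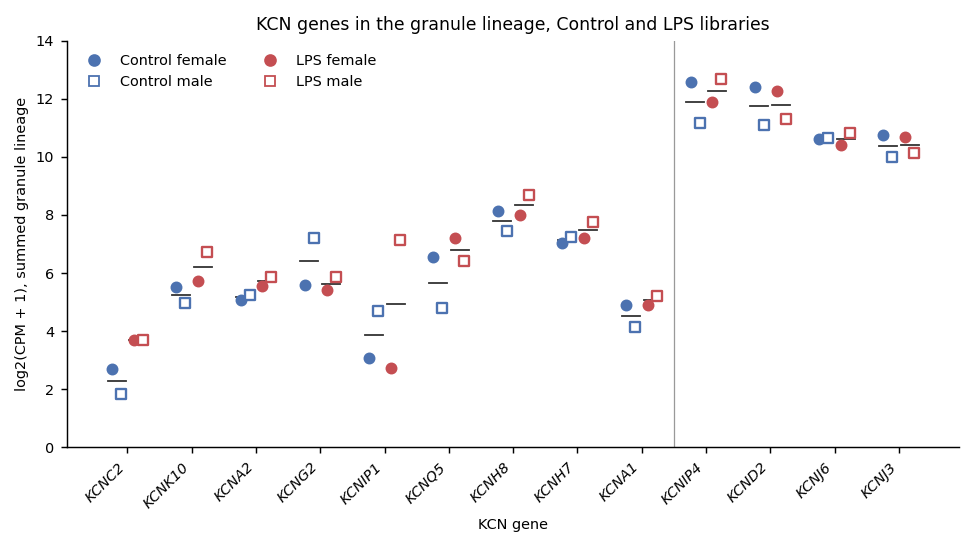
Level of 13 KCN genes in the summed granule lineage as log2(CPM + 1) in each library, with Control in blue, LPS in red, females as filled circles and males as open squares, and bars at the mean of each group (n = 2). Left of the line stand 9 of the 10 genes with the smallest p, right of it 4 genes with many UMIs. In KCNC2, KCNK10 and KCNA2 the groups do not overlap, and in KCND2 the libraries part by sex.

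The channel genes with the most UMIs did not pass the test either. KCND2 had a log2 fold change of -0.08 ± 0.65, KCNJ3 of -0.018 ± 0.45, KCNJ6 of 0.0039 ± 0.33, KCNB2 of 0.03 ± 0.56 and KCNIP4 of 0.26 ± 0.66, all at an adjusted p of 1.00 by edgeR. For KCNIP4 the LPS female was below the Control female by 0.70 and the LPS male above the Control male by 1.51 on the log2(CPM + 1) scale. KCNC1 and KCNH1 had the same pattern, with -0.49 and 1.29 for KCNC1 and -0.54 and 1.22 for KCNH1. KCNC1 and KCNH1 had their highest mean in mature cells, which led in 4 of 4 and 2 of 4 libraries. Mature cells made up more of the granule nuclei in the LPS male than in the other libraries, and the part of this was not tested. Without clusters 8 and 9 the male pair differed by 1.22 for KCNIP4, 0.898 for KCNC1 and 0.889 for KCNH1, and the female pair hardly moved. In all, 37 of the 61 genes had opposite signs in the female and male pairs, and 54.4% of all genes tested did. The median difference of the KCN genes was -0.047 in the female and 0.30 in the male pair, against 0.051 and -0.063 over all genes.

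**Figure D4:**
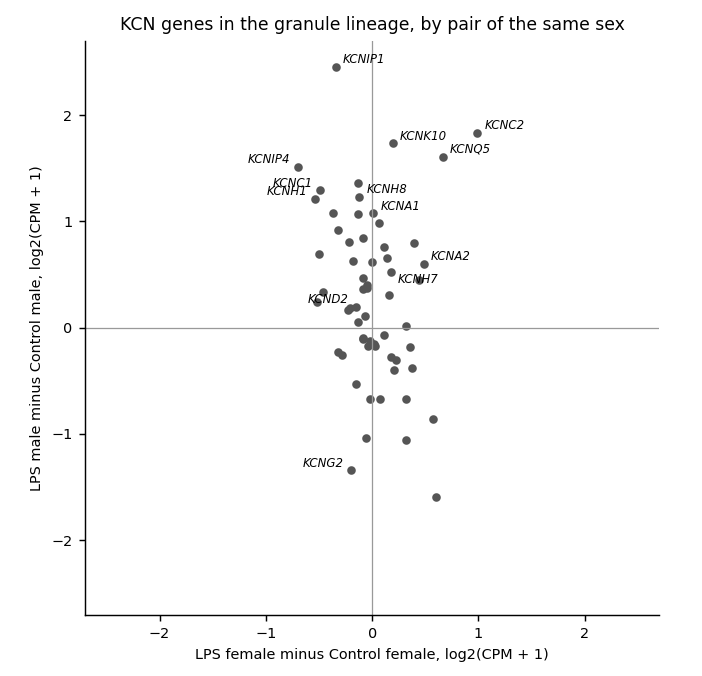
Difference between LPS and Control in log2(CPM + 1) of the summed granule lineage for 61 KCN genes, in the female pair (horizontal axis) and in the male pair (vertical axis), 1 point per gene. Points spread from -0.70 to 0.99 on the horizontal axis and from -1.59 to 2.46 on the vertical axis, and 37 points lie in the quadrants of opposite sign.

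The levels parted by sex of the library more often than by exposure, in KCN genes as in all genes tested. Sex moved together with depth and mitochondrial share, from which it cannot be told apart. In the granule lineage 15 of 61 KCN genes were higher in both females than in both males and 24 were higher in both males. Over all genes tested 30.7% and 37.6% did so. The genes named next were chosen after their values were seen. KCND2 was at 5435 and 4893 CPM in the females and 2183 and 2502 CPM in the males. KCNT2 was at 266 and 279.7 CPM in the females and 171 and 107 CPM in the males, and was higher in both females in 8 of 11 classes. KCNQ1 went the other way, with 49.4 and 42.1 CPM in the females and 145 and 162 CPM in the males, and was higher in both males in 11 of 11 classes. KCNAB2 was higher in both males in 10 of 11 classes and KCNA3 in both females in 9.

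Within the granule stages 0 of all genes passed in each of the 6 stages and in cluster 5 alone (0.0% of 10247 to 11892 genes), with 25 to 50 genes at an unadjusted p under 0.05 by edgeR, and DESeq2 passed 0 KCN genes in each. KCN genes with a positive log2 fold change numbered 26 of 41 in precursors, 27 of 43 in committing, 33 of 47 in migrating, 32 of 50 in maturing and 25 of 44 in mature cells, and 33 of 46 in granule cluster 1. The medians of their log2 fold changes were 0.053 to 0.182, against 0.0016 to 0.011 over all genes. These medians rest on the LPS male in the first 4 stages. Without it they were -0.200 in precursors, with 18 of 46 genes positive, -0.208 in committing cells, with 21 of 49, -0.049 in migrating and -0.030 in maturing cells.

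KCNG2 had the smallest p at both early stages. It was at 99.3, 234, 56.8 and 65.0 CPM in precursors (log2 fold change -1.42 ± 0.44, edgeR, unadjusted p = 0.0192, adjusted p = 1.00) and at 166, 311, 76.1 and 99.7 CPM in committing cells (-1.41 ± 0.38, edgeR, unadjusted p = 0.0112, adjusted p = 1.00). Both LPS libraries were below both Controls at both stages. KCNQ3 was lower as well, with 392, 586, 371 and 310.3 CPM in precursors and 259, 419.7, 199 and 228 CPM in committing cells, and KCNAB1 was at 57.6, 64.5, 38.9 and 43.6 CPM in precursors. Leaving out the Control female, KCNG2 and KCNQ5 passed in precursors, where 78 of 10825 genes then did (0.721%), and 0 KCN genes passed there in the other fits.

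The 3 genes of smallest p in migrating cells were KCNA2, KCNIP4 and KCNK10, each higher in both LPS libraries. KCNA2 was at 37.8, 56.9, 75.5 and 96.8 CPM (log2 fold change 0.88 ± 0.33, edgeR, unadjusted p = 0.0414, adjusted p = 1.00), KCNK10 at 13.5, 14.3, 28.1 and 23.4 CPM (0.91 ± 0.37) and KCNIP4 at 327, 382, 459 and 1761 CPM (1.64 ± 0.63). For KCNIP4 the LPS female exceeded the Controls by little and the LPS male by several times. At the free RNA share of the whole granule lineage, free RNA alone would give 1388 CPM in the LPS male. In the other libraries it would give 306 to 471 CPM. The part of free RNA in migrating cells was not tested. In the fit without a filter on low counts KCNIP4 passed here, as did 0.0584% of 18830 genes.

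In the later stages 0 KCN genes had an unadjusted p under 0.05 by edgeR. DESeq2 had 1 in granule cluster 1 and 1 in cluster 5 alone. EdgeR with the sexes as a block had 3 of 50 in maturing cells, with 3.16% of all genes, and 2 in granule cluster 1. With this block the earlier stages had 4 of 41 in precursors, 6 of 43 in committing and 7 of 47 in migrating cells. Of all genes, 3.71, 4.01 and 4.09% did so in these stages. Maturing cells were led by KCNMB3, KCNQ5 and KCNK10, at log2 fold changes of 1.297, 1.36 and 0.57, and granule cluster 1 by KCNC2, KCNH8 and KCNK10, at 1.62, 0.63 and 0.68. Each was higher in both LPS libraries. Among the genes of smallest p in mature cells were KCNK10 and KCND1, at 0.78 and 1.10, and in cluster 5 alone KCNC2 and KCNIP1, at 1.22 and 1.69. Among the genes named here for their small p, KCNK10 recurred most. For it both LPS libraries were above both Controls in migrating, maturing and mature cells and in granule cluster 1, although these stages share the 4 libraries. In these stages 10 of 47, 5 of 50, 4 of 44 and 6 of 46 KCN genes were higher in both LPS libraries. The share over all genes was counted only in the whole granule lineage, at 7.16%. In empty droplets KCNK10 was at 23.8, 41.9, 11.5 and 82.7 CPM, and the part of free RNA in its stage levels was not tested.

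In the 10 other classes 0 genes passed in each (0.0% of 5424 to 11221 genes), with 19 to 158 at an unadjusted p under 0.05 by edgeR. DESeq2 passed 0 KCN genes in each of them. With the sexes as a block, 7 of 39 KCN genes in PAX2+ interneurons and 8 of 36 in oligodendrocytes had an unadjusted p under 0.05 by edgeR. Of all genes, 4.27 and 5.63% did so in these classes. The other classes had 0 to 5 such KCN genes. In oligodendrocytes KCNJ2 was at 5.87, 3.22, 21.0 and 45.8 CPM, with a log2 fold change of 2.66 ± 0.75 (edgeR, unadjusted p = 0.00589, adjusted p = 1.00). With the sexes as a block KCNJ2 passed, as 1 of 24 among 8062 genes (0.298%). This class joined 2 clusters at a resolution of 1. Cluster 24, led by MOBP, BCAS1 and MOG, genes of myelinating cells, held 45, 41, 34 and 93 nuclei, and cluster 20, with OLIG2 among its leading genes, 80, 55, 53 and 65, so the LPS male had the largest part in cluster 24. Cluster 20 had only 4 of its 9 listed markers raised. KCNJ2 was at 7.62, 6.11, 41.0 and 74.8 CPM in cluster 24, from 3, 1, 12 and 35 UMIs, and at 4.37, 0, 0 and 3.14 CPM in cluster 20, from 3 UMIs in all. Both LPS libraries were thus above both Controls within cluster 24. In the whole class KCNC1 was at 19.97, 16.1, 22.7 and 71.2 CPM and KCNIP3 at 110.4, 199, 64.6 and 113 CPM. KCNC1 was at 28.4, 20.4, 32.1 and 104 CPM in cluster 20 and 10.15, 12.2, 13.7 and 49.15 CPM in cluster 24. KCNIP3 was at 173, 306, 78.6 and 188 CPM in cluster 20 and 38.1, 104, 51.3 and 62.0 CPM in cluster 24. The part of the cluster mix in the whole-class values was not tested. In fibroblasts KCNJ6 was at 180.1, 199, 284 and 447 CPM (0.91 ± 0.34, edgeR, unadjusted p = 0.0267, adjusted p = 1.00), with KCNJ3 and KCNK1 also higher in both LPS libraries, by 0.73 and 0.85. Among the classes these 3 genes were highest in the granule lineage or in PAX2+ interneurons. In empty droplets KCNJ6 was at 361, 1175, 192 and 1285 CPM, KCNJ3 at 936, 1134.5, 494 and 1716 CPM and KCNK1 at 266, 369.5, 162 and 558 CPM, and the part of free RNA in the fibroblast values was not tested.

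In PAX2+ interneurons KCNQ5 was at 19.2, 13.03, 26.7 and 44.3 CPM, KCNIP4 at 1729, 1081, 1769 and 4194 CPM and KCNG2 at 25.2, 169, 26.7 and 55.4 CPM. Molecular layer interneurons were led by KCNT2, KCNAB1 and KCNG2, at log2 fold changes of -1.04, 0.77 and -0.92, and the genes of smallest p in Golgi cells included KCNC2 and KCNH8, at 1.06 and 0.63. In Golgi cells KCNC2 was higher in LPS in each pair, 199.8 against 103 CPM in the females and 82.4 against 28.2 CPM in the males, but the Control female exceeded the LPS male. The Golgi class joins clusters 17 and 19, with 37, 71, 40 and 75 nuclei in the first and 43, 85, 54 and 15 in the second. KCNC2 was at 56.5, 16.1, 150.7 and 81.0 CPM in cluster 17, from 18, 4, 45 and 35 UMIs. It was at 127, 36.0, 224 and 87.0 CPM in cluster 19, from 80, 14, 134 and 11 UMIs. Its level was higher in LPS in each pair in both clusters, but the male pair rests on few UMIs. Endothelial stalk cells were led by KCNN3, KCNT2 and KCND2, at -1.08, -0.48 and -0.41. None passed the test.

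In microglia 16 of 17 KCN genes tested had a positive log2 fold change, with a median of 0.82 against 0.03 over all genes, of which 52.4% were positive. This rested on the LPS male, where the macrophage genes F13A1, MRC1 and LYVE1 were at 97.7, 130.2 and 5.43 CPM against 840 to 1554, 377 to 647 and 129 to 339 CPM in the other libraries. The part of this difference in the KCN values was not tested. Without the LPS male 8 of 20 were positive with a median of -0.18, and the median difference on the log2(CPM + 1) scale was 0.099 in the female and 0.92 in the male pair. KCNQ5 was at 51.4, 33.4, 86.5 and 92.2 CPM, KCNH8 at 21.2, 95.5, 71.5 and 260.5 CPM and KCNAB1 at 24.2, 43.0, 41.4 and 108 CPM. KCNIP4, at 792, 635, 560.5 and 3088 CPM, was high in the LPS male only, and 46.3, 40, 36.1 and 86.7% of microglial nuclei held a UMI of it. The free RNA share of microglial UMIs was estimated at 18.1, 26.9, 15.6 and 31.6%, and its part in these values was not tested.

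KCNH5, a voltage-gated channel of the ether-a-go-go family, set the Control female apart in several classes. In Bergmann glia it was at 478, 41.2, 66.4 and 61.4 CPM, in astrocytes at 332, 27.7, 44.7 and 21.7 CPM and in proliferating glia at 207, 30.5, 43.6 and 25.1 CPM. It was the highest library in these 3 classes and in PAX2+ interneurons, at 94.8, 2.79, 7.75 and 23.6 CPM. At least 1 KCNH5 UMI was found in 80.3, 6.49, 20.4 and 10.7% of Bergmann glia and in 72.7, 5.91, 14 and 5.98% of astrocytes, with at most 18 UMIs in a nucleus. In fibroblasts, a class with few KCNH5 UMIs, the share was 2.33, 1.97, 2.72 and 2.94%, from 14, 4, 4 and 1 UMIs. The Control female thus had the most UMIs there as well, with 7 of its 14 in 1 nucleus. The median depth was 5652, 2085, 4633 and 2307 UMIs in Bergmann glia and 4639, 3248, 4146 and 3308 UMIs in fibroblasts. Empty droplets held KCNH5 at 38.9, 17.7, 5.77 and 19.4 CPM, so the Control female was the highest library there too, and the part of free RNA and depth in these shares was not tested.

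The same library did not stand apart in the granule lineage or in oligodendrocytes. In the granule lineage KCNH5 was at 11, 5.70, 9.32 and 10.7 CPM, and 4.42, 1.06, 3.12 and 2.75% of nuclei held a UMI. In oligodendrocytes it was at 86.9, 57.9, 90.8 and 57.2 CPM. The log2 fold changes of LPS against Control were -2.12 ± 1.05 in Bergmann glia, -2.49 ± 1.16 in astrocytes and -1.74 ± 0.84 in proliferating glia (edgeR, adjusted p = 1.00 in each). The groups overlapped, since the Control male was as low as the LPS libraries. Without a filter on low counts KCNH5 passed in Bergmann glia and astrocytes, where 0.0868 and 0.0483% of all genes did. In Bergmann glia it also passed without the LPS female, with 1.09% of all genes. In PAX2+ interneurons it passed without the Control male or the LPS male, with 0.178 and 0.229% of all genes.

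**Figure D5:**
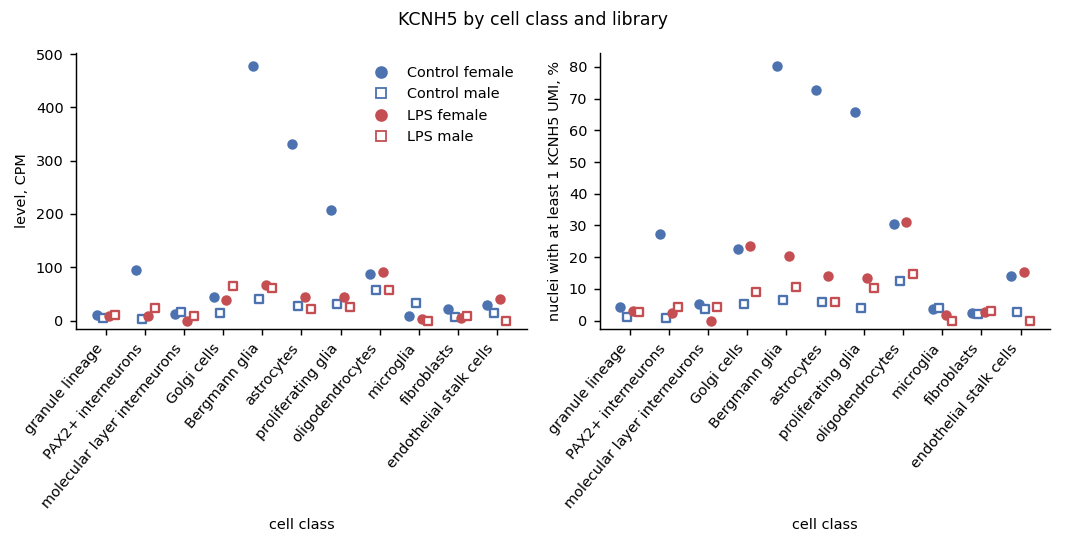
KCNH5 in 11 cell classes (horizontal axis), as CPM (left) and as the percentage of nuclei with at least 1 KCNH5 UMI (right), 1 point per library, with Control in blue, LPS in red, females as filled circles and males as open squares. The Control female is at 478, 332 and 207 CPM in Bergmann glia, astrocytes and proliferating glia, where the other libraries are at 21.7 to 66.4 CPM.

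The other genes of smallest p in glia followed the libraries in different ways. In Bergmann glia KCNQ3 was at 166, 357, 165 and 113 CPM, lower in both LPS libraries. In astrocytes KCNJ16 was at 12.1, 8.27, 16.2 and 25.0 CPM and KCNA2 at 14.6, 14.1, 19.7 and 33.3 CPM, both higher in both LPS libraries. In proliferating glia KCNQ3 was at 479, 580.3, 399 and 309 CPM and KCNJ3 at 279, 153, 345 and 284 CPM. None passed the test.

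Genes of the channel complexes outside the KCN symbols were a list of 14, of which 9 had an entry, 8 were tested in the granule lineage and 0 passed by edgeR, with 0 at an unadjusted p under 0.05. In the other classes and stages 0 passed as well, with an unadjusted p under 0.05 for 2 in microglia and 1 in proliferating glia. DPP6, the other accessory subunit of A-type channels, was at 2267, 3607, 2666 and 3505 CPM, higher in the males. CNTNAP2, which clusters KCNA channels on axons, was at 1495, 1283, 3017 and 681 CPM, with LPS higher by 1.01 in the female pair and lower by 0.91 in the male pair on the log2 scale. ABCC8, the regulatory subunit of ATP-sensitive channels, was at 60.1, 135, 61.3 and 66.3 CPM.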

How the data were processed

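The authors deposited raw UMI counts per gene and barcode for each library, with barcodes not yet filtered. Per the labels, reads were aligned to Mmul_8.0.1 with Cell Ranger, introns included; the file headers name version 4 and the extraction protocol 5.0. The free RNA correction that the authors applied in their own analysis is not in the deposited counts. Barcodes with at least 500 genes were kept. Free RNA was estimated from barcodes with up to 100 UMIs, and the droplets called empty are a set with more UMIs, ranked below the nuclei. Libraries were integrated in Seurat 5.3.0 (R 4.3.3) with 2000 features and 30 dimensions, all KCN genes left out, and clustered at resolution 0.5. Clusters were named by marker lists, and BARHL1, KIT, EOMES and SOX10 had no entry under these symbols. Scrublet, run in scanpy 1.11.5, called 505, 637, 368 and 439 doublets, which stayed in. Its automatic threshold marked 0% and 0.0256% in the Control male and LPS male, so a threshold of 0.189 was used there.

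UMIs were summed per library and class (scaled to the sum for CPM), and LPS was compared with Control by edgeR 4.0.16 (quasi-likelihood, filterByExpr, TMM, no covariate) over all genes, with Benjamini-Hochberg adjustment, a gene passing if its adjusted p was under 0.1 with a change of over 0.25 on the log2 scale in either direction. DESeq2 1.42.0 was an alternative. The code was tested on simulated data.

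Members named were the 10 of smallest p in the granule lineage and 3 in each other comparison, up to 4 per class by the log2 ratio to the other classes (at least 20 UMIs and the highest class in at least 3 libraries), the 10 with the largest range over stages, and members with textbook roles. A few members that met these rules are not reported here. Members and lists were chosen with earlier results of these data known. Gene lengths, coordinates and sequences were not used here.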

Additional observations from a re-analysis of the deposited data

Results flagged for a closer look

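Among the 37 KCN genes of opposite sign in the female and the male pair in the granule lineage, 7 differed by over 0.25 in both pairs and by over 1 in at least 1 pair, on the log2(CPM + 1) scale, and in 5 of them the female pair was lower and the male pair higher with LPS. LPS minus Control was -0.34 and 2.46 for KCNIP1, -0.70 and 1.51 for KCNIP4, -0.49 and 1.29 for KCNC1, and -0.54 and 1.22 for KCNH1, female pair first. It was -0.37 and 1.08 for KCNS2, and with the signs exchanged 0.60 and -1.59 for KCNK5 and 0.32 and -1.06 for KCNH4, genes with mean levels of 1.10 to 5.43 CPM. Mature cells were 34.1% of the granule nuclei of the LPS male and 6.99 to 9.43% in the other libraries. Without clusters 8 and 9 the male pair differed by 1.93, 1.22, 0.898 and 0.889 for KCNIP1, KCNIP4, KCNC1 and KCNH1, and by 1.23, -1.51 and -0.77 for KCNS2, KCNK5 and KCNH4. Each side of a pair is 1 library, and neither the difference between the pairs nor the part of mature cells in it was tested. Over all genes tested 54.4% had opposite signs, and the share of them meeting the rule for the 7 genes was not counted. Whether 7 is more than that share is therefore not known.

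In the droplets called empty, which entered no comparison of nuclei, KCN genes took 1.87% of UMIs in the LPS male, above the 0.846 and 1.22% of the Control libraries. The LPS female had 0.465%.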

How the results depend on the processing

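In the granule lineage 0 KCN genes passed under every alternative run. The log2 fold changes of the named genes kept their direction in 137 recalculations and changed it in 2, those of KCNG2 (0.0017 without the Control male) and KCNIP1 (-1.47 without the LPS male), and KCNIP1 could not be fitted with free RNA subtracted. The difference in KCN share was 0.107 with at least 1000 genes per nucleus, 0.120 with free RNA subtracted and 0.0198 without KCNIP4, and ranged from -0.297 (without the Control male) to 0.530 percentage points with a library left out. Where 0 KCN genes passed in the main test, some passed otherwise. Without a filter on low counts 3 of 72 passed in Bergmann glia (KCNIP4, KCNH5, KCNG4), 1 of 75 in astrocytes (KCNH5), 1 of 67 in oligodendrocytes (KCNAB3) and 1 of 73 in migrating cells (KCNIP4). Among all genes 15, 9, 9 and 11 passed, or 0.0868, 0.0483, 0.0556 and 0.0584%. With a library left out, 0 to 5 passed in Bergmann glia (5 without the LPS female, among 103 of 9421 genes), 0 to 1 in PAX2+ interneurons (1 without the Control male or the LPS male, among 18 and 23 genes), 0 to 1 in oligodendrocytes and granule cluster 1 and 0 to 2 in fibroblasts (without the LPS female, among 57, 46 and 39 genes), and 0 to 2 in precursors (without the Control female, among 78 genes). The cause was not tested. A group left with 1 library was assumed to vary like the other. With a replicate block by sex, 1 KCN gene passed in oligodendrocytes (KCNJ2, among 24 genes) and 0 KCN genes in the other classes and stages. The labels give no replicate numbers. Over genes, the deviations of libraries of the same sex from their group means correlated at 0.778. With 2 pairs both values are equal by construction. Of the log2 ratios between classes, 94 moved by less than the spread between libraries and 17 by more, none changing sign. Depth limits the genes of few UMIs, and 2 fetuses per group limit every test.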
